A study of Mus musculus with 4 samples.

Results

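The regions described here are 81 clusters of H3K27ac peaks in which most of the peaks came from the control culture. H3K27ac is acetylation of lysine 27 on histone H3. Their members are 1094 of the 26003 peaks in 2 deposited lists. To find them, the peaks of both lists were pooled and peaks no more than 12.5 kb apart on a chromosome were joined. A cluster was kept if it held 8 or more peaks and if 35% or fewer of them came from the list of the Hdac3-deleted culture. The members were thus selected by peak numbers, and their lean is described without a test.

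The 2 libraries came from primary C57Bl/6 mouse chondrocytes grown ex vivo as micromass cultures, in which cells are plated as a dense drop. One culture was transduced with Cre-recombinase adenovirus and is labelled hdac3-knockout (Cre, 13130 peaks). The other was transduced with GFP control adenovirus and is labelled wild-type (GFP, 12873 peaks). Adenovirus exposure was thus shared by both. Each culture gave 1 library, so no difference here has a replicate check. No source used here gives the Hdac3 allele, the age of the mice or the number of animals, and the lists hold no measure of Hdac3 itself. The chondrocyte label was set against marker genes: 14 of 14 chondrocyte markers had a peak within 10 kb in both lists. Of the other markers, Sp7 (1 of 5 osteoblast genes) and Col3a1 (1 of 5 fibroblast genes) had a peak in both lists, Cd68 (1 of 5 myeloid genes) had 3 in the GFP list alone, and the adipocyte, endothelial and muscle markers had none.

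HDAC3 is a histone deacetylase that works within the NCoR and SMRT corepressor complexes, which nuclear receptors and other transcription factors bring to DNA. It removes acetyl groups from histone tails, and mice without it in cartilage have abnormal growth plates. H3K27ac marks active promoters and enhancers, and dense runs of acetylated sites often lie over genes that are characteristic of a cell type. In cartilage such genes include those of aggrecan, matrilins and the enzymes that build chondroitin sulphate.

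RefSeq promoters (GRCm38.p6, 250 bases before to 50 bases after the annotated start) are shown for 4 genes in these clusters, because a GFP peak and no Cre peak covered part of them. They had the highest GFP peaks among the promoters so covered in the clusters named here. Capitals mark the bases under the GFP peak, and each sequence runs 5′ to 3′ on the gene's strand.
Akt2 (chr7:27605547-27605846, plus strand): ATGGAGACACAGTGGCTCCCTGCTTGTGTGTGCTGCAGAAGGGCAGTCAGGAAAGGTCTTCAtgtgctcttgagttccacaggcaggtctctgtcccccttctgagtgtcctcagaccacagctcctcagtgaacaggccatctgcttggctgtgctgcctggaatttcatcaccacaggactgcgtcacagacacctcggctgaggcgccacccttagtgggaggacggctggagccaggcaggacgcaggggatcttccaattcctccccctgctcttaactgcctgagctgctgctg
Nedd4 (chr9:72693048-72693347, plus strand): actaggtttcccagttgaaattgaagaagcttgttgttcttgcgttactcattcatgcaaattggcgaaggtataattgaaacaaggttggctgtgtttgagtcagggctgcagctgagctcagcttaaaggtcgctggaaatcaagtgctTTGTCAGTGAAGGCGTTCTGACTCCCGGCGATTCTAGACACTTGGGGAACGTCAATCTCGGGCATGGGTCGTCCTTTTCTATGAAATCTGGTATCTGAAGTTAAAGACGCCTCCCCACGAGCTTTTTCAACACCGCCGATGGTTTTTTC
Matn3 (chr12:8947679-8947978, plus strand): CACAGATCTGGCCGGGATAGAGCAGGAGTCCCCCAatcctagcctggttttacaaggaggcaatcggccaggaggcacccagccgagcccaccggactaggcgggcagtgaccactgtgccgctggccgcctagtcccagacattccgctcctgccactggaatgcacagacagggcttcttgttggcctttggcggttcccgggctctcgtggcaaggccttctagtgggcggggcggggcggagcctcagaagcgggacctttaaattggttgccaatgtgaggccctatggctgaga
Ube2m (chr7:13037578-13037877, minus strand): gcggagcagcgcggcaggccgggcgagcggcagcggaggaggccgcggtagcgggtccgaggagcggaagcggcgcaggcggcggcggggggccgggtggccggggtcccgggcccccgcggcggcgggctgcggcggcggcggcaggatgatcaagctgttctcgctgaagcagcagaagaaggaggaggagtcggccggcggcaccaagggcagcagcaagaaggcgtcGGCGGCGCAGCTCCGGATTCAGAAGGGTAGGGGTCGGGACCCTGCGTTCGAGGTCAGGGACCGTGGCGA

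The peak upstream of this internal start of Akt2 had a summit pileup of 17 fragments and covered positions 1 to 62, and the nearest Cre peak lay 591 bp away. The pileup is the number of sequenced fragments stacked at the top of a peak. At Nedd4 the peak held 15 fragments over positions 152 to 300, with a Cre peak 152 bp away. At Matn3 it held 14 fragments over positions 1 to 35, and the nearest Cre peak was 3234 bp away. At Ube2m it held 12 fragments over positions 232 to 300, with a Cre peak 137 bp away. Fold enrichment over the pileup that the caller expected gave another order. It was 6.29 at Akt2, 5.59 at Nedd4, 3.95 at Matn3 and 6.67 at Ube2m. All 4 peaks reached only part of the promoter, and in 3 of the 4 the nearest Cre peak was well within 1 kb.

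Short motifs were searched in these promoters on both strands and compared with 17491 RefSeq promoters of protein-coding genes. The Matn3 promoter held the GC box letters GGGCGG at positions 229, 234 and 239, overlapping one another and outside the bases under the peak. GGGCGG occurred in 46.3% of all promoters and in none of the other 3 shown. CCAAT, in 39.0% of all promoters, was found in Matn3 at positions 33, 268 and 276, in Akt2 at 260 and in Nedd4 at 61. TGACG, in 23.8% of all, was found in Akt2 at position 185 and in Nedd4 at 201, where it lay under the peak. Nedd4 also held the AP-1 letters TGANTCA (7.08% of all) at position 99, and Akt2 held the RUNX letters TGTGGT (15.1% of all) at 116 and 173. TATAAA (13.3% of all) and the SOX letters ACAAT (28.5% of all) were in none of the 4, and Ube2m held none of the 7 motifs.

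Of the member peaks 318 were Cre and 776 GFP, which puts the Cre share at 29.1% (exact Clopper-Pearson 95% interval 26.4 to 31.9%), against 50.5% over both whole lists. Of the 741 clusters of 8 or more peaks, 10.9% were GFP-leaning in this sense, while 97 clusters (13.1%) leaned the other way, with 65% or more Cre peaks, and 563 were balanced. A lean towards GFP was thus no more frequent than a lean towards Cre. GFP-leaning clusters spanned a median of 13576 bp (2251 to 61698 bp) and held a median of 12 peaks (8 to 38). There were 8 to 11 peaks in 39 of the 81 (48.1%, against 58.8% of the Cre-leaning and 52.4% of the balanced clusters) and 20 or more in 12. They lay on 19 of 21 chromosomes, with 9 of the 52 clusters of 8 or more peaks on chromosome 2, 9 of 70 on chromosome 7 and 6 of 24 on chromosome 12. Covered length and summed pileup add up the same selected peaks, so they follow the peak numbers and are no separate support. Cre peaks covered 82774 bp and GFP peaks 193552 bp, and Cre gave 29.8% of the summed summit pileup. Single peaks were alike, with a median width of 205 bp in Cre and 202.5 bp in GFP. Their median summit pileup was 12 fragments in Cre and 11 in GFP. In bulk chromatin, fewer cells that carry the mark and less mark per cell cannot be told apart.

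**Figure D1:**
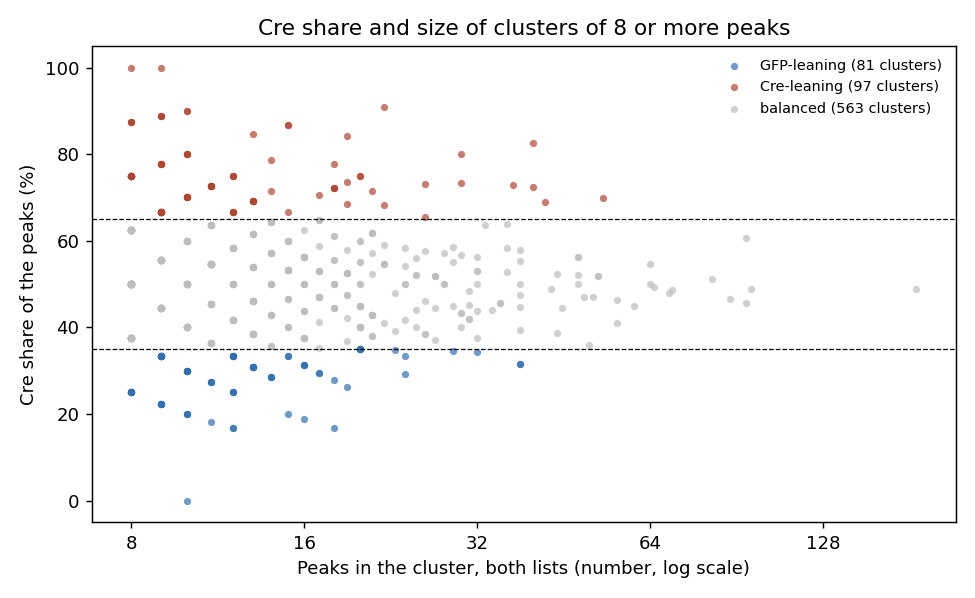
Cre share of the peaks (%) against the number of peaks in a cluster (log scale) for all 741 clusters of 8 or more peaks; dashed lines mark 35% and 65%. The 81 GFP-leaning clusters hold at most 38 peaks, and the clusters with over 64 peaks all lie between the lines.

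The lean of a single cluster rests on few calls. In 8 of the 81 clusters the 95% interval of the Cre share lay wholly under 50.5%: those at Rbfox2, Zfp521, Nrep, Ppp1r3c, Ccdc34, Fan1, Vgll4 and Tom1l2. The other 73 intervals took in 50.5%, and the upper bounds ran over the 81 clusters between 30.8 and 70.1%. These intervals cover counting error only and treat neighbouring peaks as independent, which they are not. They also make no allowance for the choice of these clusters, by a low Cre share, from 741 clusters of 8 or more peaks. The 8 clusters are therefore not shown to lean by more than counting error. With 1 GFP peak fewer, 26 of the 81 clusters would pass above 35%, and with 1 more Cre peak 41 would. With 1 GFP call turned into a Cre call, 57 would. Just inside the threshold, 5 clusters stood at exactly 35% (7 Cre and 13 GFP peaks each). Just outside it stood the Serinc5 cluster with 6 Cre and 11 GFP peaks (35.3%) and the clusters at Tmbim1 and at the hyaluronan synthase gene Has2, each with 5 Cre and 9 GFP peaks (35.7%).

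How the peaks are counted mattered for many clusters. When peaks of one list within 500 bp counted as 1, 42 clusters stayed at a Cre share of 35% or less, 26 lay between 35 and 50%, and 13 reached 50% or more. By covered length the numbers were 64, 15 and 2, and by summed pileup 69, 12 and 0. The Smim14 and Setd5 clusters were the pair above 50% by length: at Smim14, 4 Cre peaks covered 1533 bp and 8 GFP peaks 1467 bp, and at Setd5, 4 Cre peaks covered 1858 bp and 9 GFP peaks 1785 bp. In both, the GFP list had more peaks but no more covered sequence.

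**Figure D2:**
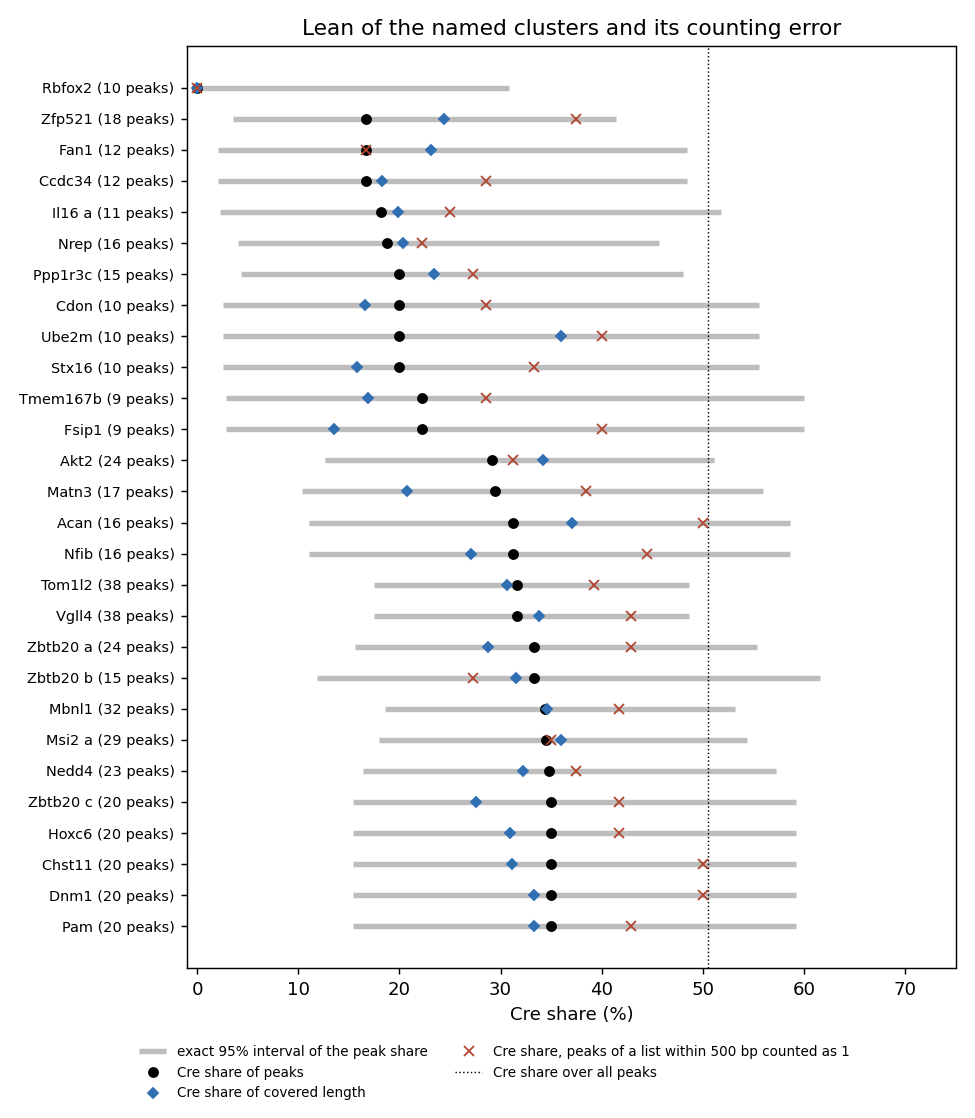
Cre share (%) of the 28 named clusters by peak number (dots, with exact 95% intervals as grey bars), by covered length (diamonds) and with peaks of a list within 500 bp counted as 1 (crosses); the dotted line is the Cre share over all peaks, 50.5%, and a, b and c mark the first to last cluster of a gene. The Rbfox2 cluster alone has no Cre peak, and the crosses of Acan, Chst11 and Dnm1 sit at 50%.

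Overlapping peaks were chained into sites to see where the lists differed. The 81 clusters held 878 sites, of which 186 (21.2%) were called in both lists, 121 (13.8%) in Cre alone and 571 in GFP alone. In the Cre-leaning clusters 19.8% of 1077 sites were shared, in the balanced clusters 34.9% of 6221, and over the whole lists 24.2% of 20224. Of the 776 GFP peaks 26.4% (23.3 to 29.7%) overlapped a Cre peak by at least 1 bp, and 63.8% had a Cre peak within 1 kb. Of the 318 Cre peaks 61.9% overlapped a GFP peak and 91.5% had one within 1 kb. The choice of clusters by peak number sets much of this imbalance, and the Cre-leaning clusters gave the mirror image: 23.9% of their Cre and 67.4% of their GFP peaks overlapped the other list, and 52.0% of the Cre and 90.6% of the GFP peaks had one of its peaks within 1 kb.

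Where both lists had a call, the median summit heights were close. The median summit pileup at the 186 shared sites was 13 fragments in Cre and 13.5 in GFP, and the median ratio of Cre to GFP was 1. Cre was higher at 66 sites, the lists were equal at 28, and GFP was higher at 92. In 185 of the 186 the exact 95% interval took in equal levels, set at a Cre share of 51.5% from the background of the 2 libraries, and in 1 it lay below. With so few fragments these intervals are wide, so the count cannot show that levels were equal. In the Cre-leaning clusters the median ratio was 1.18, with 141 sites higher in Cre and 51 in GFP. There too 209 of 213 intervals took in equal levels. In the balanced clusters the median ratio was 1, with 1006 sites higher in Cre and 914 in GFP.

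GFP-only sites were mostly low. Their median pileup was 11 fragments, with 7 to 9 fragments at 22.8% of them and 15 or more at 13.0%. Cre-only sites in the same clusters also had a median of 11 fragments. The lowest pileup in either list was 7 fragments. A site without a peak is one where the caller's threshold was not met, not one with no acetylation. The lists do not give the fragments there. The expected pileup used by the caller averaged 1.25 fragments at the Cre peaks and 1.12 at the GFP peaks of these clusters, against 1.21 and 1.12 over the whole lists, and its part in the lean was not tested. The highest single peak of a cluster was in the Cre list in 19 clusters, in the GFP list in 55, and 7 were tied. By the choice of clusters there were 776 GFP and 318 Cre peaks, so a highest peak could more often come from GFP. Pileups of 15 or more made up 22.3% of the Cre and 18.8% of the GFP peaks.

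**Figure D3:**
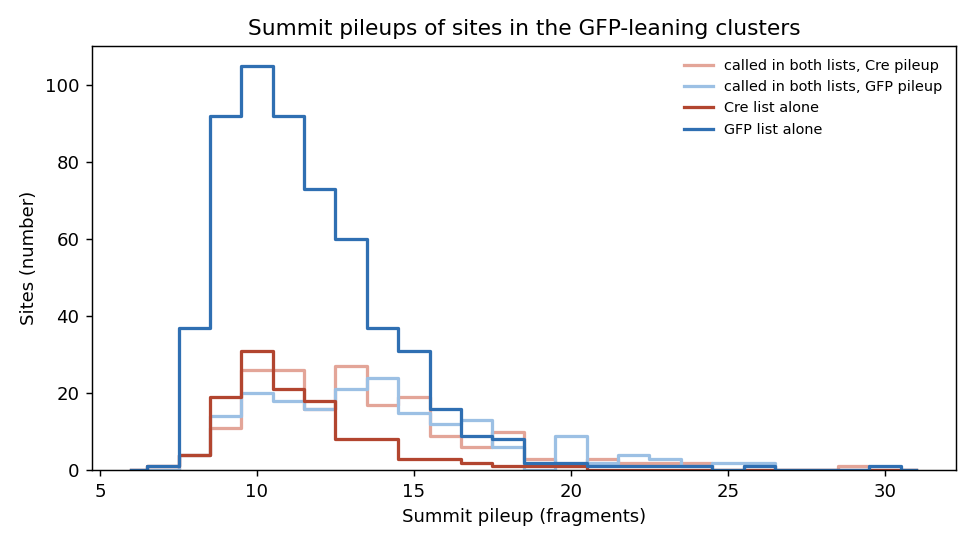
Number of sites in the GFP-leaning clusters at each summit pileup (fragments), for sites called in both lists (pale lines, 1 for each list) and in Cre or GFP alone (dark lines). GFP-only sites peak at 10 fragments, and few exceed 18.

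Most of the member peaks lay inside genes. The summit was in the interior of a protein-coding gene for 73.9% of the 1094 peaks (95% interval 71.2 to 76.5%), within 1 kb of either gene end for 11.5% (9.69 to 13.6%) and outside genes for 14.5% (12.5 to 16.8%). Interior peaks made up 59.9% in the Cre-leaning clusters, 63.1% in the balanced clusters and 53.4% over the whole lists. Peaks at gene ends made up 10.6, 14.9 and 26.1% in those same sets, and intergenic peaks 29.5, 22.0 and 20.5%. In 34 of the 81 clusters every peak was interior, in 8 every peak was intergenic, and 39 had at least 1 peak at a gene end. Of the member peaks 12.5% lay within 1 kb of an annotated start, against 24.3% over the whole lists. The share was 7.22% in the Cre-leaning and 13.3% in the balanced clusters, so a low share was not particular to the GFP-leaning ones. Peaks of a cluster share their gene and are not independent, so these shares were compared without a test.

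**Figure D4:**
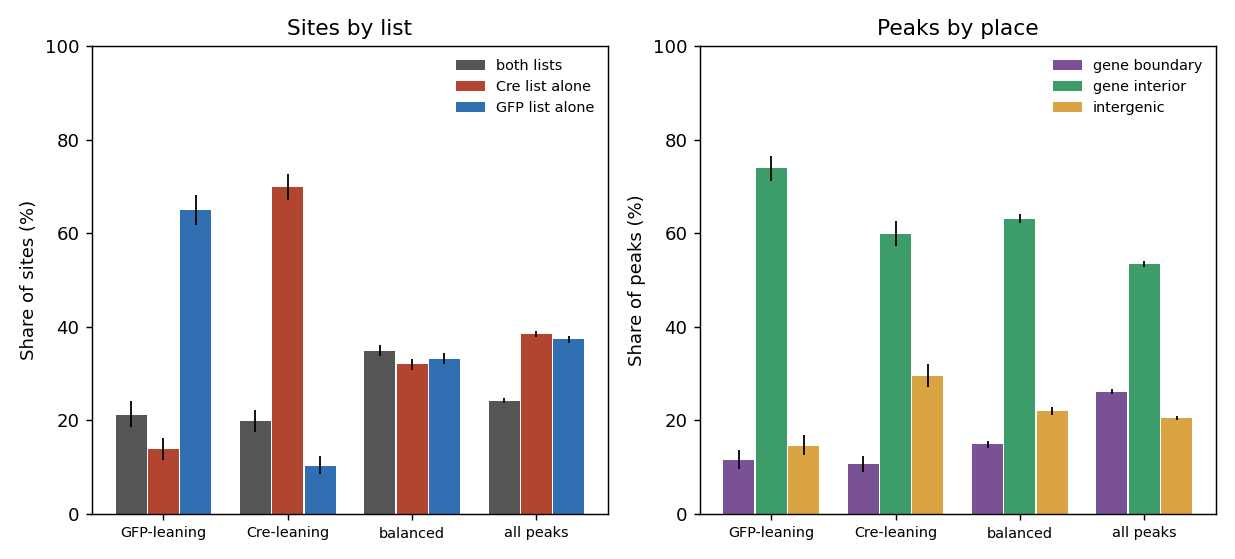
Left, share of sites (%) called in both lists, in Cre alone or in GFP alone; right, share of peaks (%) at gene ends, inside genes and between genes, for GFP-leaning, Cre-leaning and balanced clusters and all peaks; error bars are exact 95% intervals. In GFP-leaning clusters 571 of 878 sites are GFP alone, and they have the highest interior share of the 4 sets, 73.9%.

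The clusters overlapped 89 protein-coding genes, which is 0.406% of the 21896 in the annotation and 11.6% of the 765 that any cluster of 8 or more peaks overlapped. They also overlapped 25 lncRNA and 4 miRNA genes. A single protein-coding gene lay under 59 clusters, 2 or more under 14 and none under 8. The genes were longer than most, with a median length of 27347 bp against 17149 bp over all protein-coding genes, but not longer than those under the Cre-leaning clusters (38207 bp). Zbtb20 held 3 of the clusters, and Msi2 and Il16 held 2 each.

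Promoters of 25 genes lay under a peak of these clusters. Of these, 7 had a peak of both lists, 1 of Cre alone and 17 of GFP alone. In the Cre-leaning clusters the same numbers were 6, 11 and 1 of 18 genes, and in the balanced clusters 92, 40 and 37 of 169, so that the imbalance went with the list the clusters were chosen for. The 17 genes were Hjurp, Hspb6, Psenen, Zfp36l1, Bcl2l2, Nedd4, Mdm2, Matn3, Pcolce, Laptm4a, 1810058I24Rik, Cst3, Ube2m, Cirbp, Tmem167b, Gm52009 and Chmp2a. Akt2 counted among those with both lists, because another of its starts lay under peaks of both. The GFP pileup over the GFP-only promoters was between 8 and 30 fragments, and the highest was at Hjurp, which encodes the chaperone of the centromeric histone CENP-A. Its nearest Cre peak lay 764 bp away. By fold enrichment over the expected pileup the Hjurp peak was not the highest. Its value was 4.70, under the GFP list median of 6.16, while a peak of 20 fragments at Hspb6 had 10.8. The promoters under a peak had a median GC content of 58.3%, against 56.3% over all promoters and 59.3% in the balanced clusters.

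Among cartilage matrix genes, Acan and Matn3 lay in GFP-leaning clusters. Acan encodes aggrecan, the large proteoglycan that gives cartilage its resistance to compression. Its cluster (chr7:79042810-79057536) held 5 Cre and 11 GFP peaks over 2504 bp and 4253 bp, from the upstream flank into the gene. All 5 Cre peaks overlapped a GFP peak, at 4 shared sites with summits of 17, 15, 18 and 12 fragments in Cre and 14, 17, 21 and 15 in GFP. The other 5 sites were GFP alone with 9 to 13 fragments, and 4 of them lay upstream of the gene. Counted over the whole Acan gene, the lists had 5 Cre and 5 GFP peaks. Of these, 2 Cre peaks and no GFP peak lay outside the member cluster, so the equal numbers drew on Cre peaks beyond it. With peaks within 500 bp counted as 1, both lists had 4 peaks in the whole cluster, its upstream part included. The GFP-only summits at Acan were thus all lower than the GFP summits at its shared sites.

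Matn3 encodes matrilin 3, an adaptor that links collagen fibrils and proteoglycans. Its cluster (chr12:8947081-8975176) held 5 Cre and 12 GFP peaks over 984 bp and 3769 bp, a Cre share of 20.7% by length, and reached into the neighbouring ciliary transport gene Wdr35. Here the lists rarely met: 1 site was shared, with 12 fragments in Cre and 20 in GFP, while 4 sites were Cre alone (9 to 16 fragments) and 11 GFP alone (8 to 16 fragments). The GFP peak at the upstream edge of the Matn3 promoter, shown in capitals in the sequence above, ended before the annotated start, and no Cre peak lay in that promoter. The Cre peaks ran through the same stretch as the GFP peaks, and the 2 Cre and 7 GFP peaks within 100 kb were all those of the neighbouring member cluster at Laptm4a.

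Chst11 encodes a sulphotransferase that adds sulphate to the chondroitin chains of aggrecan and other proteoglycans. Its cluster (chr10:83127995-83141144) lay wholly inside the gene, centred 150.1 kb from the 5′ end of a gene of 211.5 kb, with 7 Cre and 13 GFP peaks. At the 5 shared sites the Cre summits were 13, 13, 12, 10 and 10 fragments and the GFP summits 12, 12, 17, 11 and 11. GFP-only sites numbered 8 (9 to 13 fragments) and Cre-only sites 2 (10 fragments each). Counted with a 500 bp join, both lists had 6 peaks. A second, balanced cluster in the gene had 3 Cre and 5 GFP peaks, and the whole gene 16 Cre and 29 GFP peaks. Of the latter, 9 Cre and 16 GFP peaks lay outside the member cluster.

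Among regulators of transcription, Zbtb20 was the most often represented. It encodes a zinc finger repressor that in mice is needed for the terminal differentiation of growth plate chondrocytes. The gene spans 758.7 kb and held 7 clusters of 8 or more peaks, 3 of them GFP-leaning and 4 balanced, with Cre shares between 33.3 and 50%. None of the 7 had more Cre than GFP peaks, and the whole gene held 47 Cre and 81 GFP peaks. Of these, 27 Cre and 42 GFP peaks lay outside the 3 member clusters. The first member cluster (chr16:42907707-42920084), 38.2 kb from the 5′ end, held 8 Cre and 16 GFP peaks. Its 6 shared sites had Cre summits of 21, 13, 13, 12, 14 and 12 fragments and GFP summits of 18, 17, 17, 12, 13 and 14. Its 9 GFP-only sites lay between these with 9 to 15 fragments, so both lists covered the stretch from end to end.

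The second Zbtb20 cluster, 481.9 kb from the 5′ end, held 5 Cre and 10 GFP peaks and a single shared site, with 19 fragments in Cre and 16 in GFP. The third, 707.5 kb from the 5′ end, held 7 Cre and 13 GFP peaks. At its 5 shared sites the Cre summits were 11, 9, 9, 11 and 12 fragments and the GFP summits 12, 11, 15, 17 and 15, so that GFP was higher at each of them. The 3 Zbtb20 clusters thus did not share 1 pattern of summits.

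**Figure D5:**
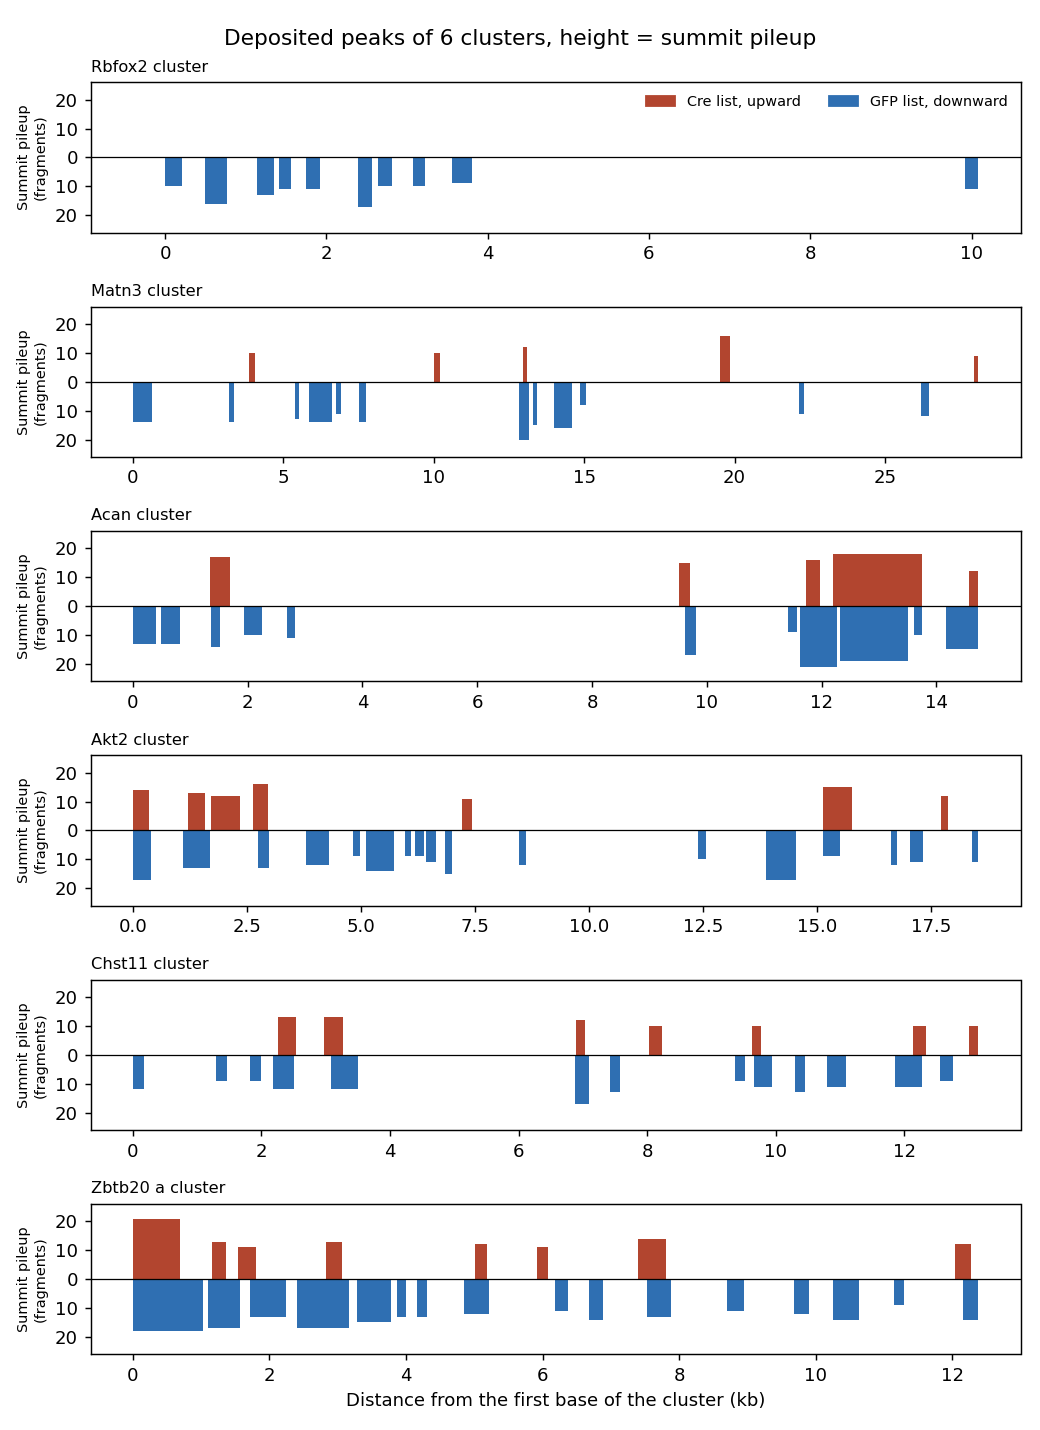
Deposited peaks of the Rbfox2, Matn3, Acan, Akt2, Chst11 and first Zbtb20 (Zbtb20 a) clusters by distance from the first base of the cluster (kb); bars have the width of the peak and the height of its summit pileup (fragments), Cre upward and GFP downward. Rbfox2 has GFP peaks only, Matn3 has Cre and GFP peaks mostly at different places, and Acan has Cre peaks over shared sites only.

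Nfib encodes a nuclear factor I transcription factor. Its cluster (chr4:82502437-82512943) lay across an end of the gene, with 6 of its 16 summits inside it, and held 5 Cre and 11 GFP peaks. Both shared sites were low, with 10 and 9 fragments in Cre and 12 and 9 in GFP. The 9 GFP-only sites had 9 to 14 fragments and the 3 Cre-only sites 9 to 12. Zfp521 encodes a zinc finger protein that restrains Runx2 in mouse bone cells. Its cluster (chr18:13872171-13902087) held 3 Cre and 15 GFP peaks, all interior, with a Cre share of 16.7% (3.58 to 41.4%). At its only shared site 1 Cre peak of 17 fragments overlapped a chain of 4 GFP peaks of up to 15 fragments. The other 11 GFP sites had 8 to 14 fragments, while the 2 other clusters of the gene were balanced, with 6 Cre and 5 GFP peaks and with 10 Cre and 9 GFP peaks. The whole of Zfp521 held 22 Cre and 31 GFP peaks. Outside the member cluster it held 19 Cre and 16 GFP peaks, so Cre calls were not fewer there.

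Vgll4 encodes a cofactor of TEAD transcription factors that competes with YAP. Its cluster (chr6:114873307-114893655) was one of the pair with the most peaks, 12 Cre and 26 GFP, all interior, with a Cre share of 31.6% (17.5 to 48.7%). The 7 shared sites ran between 10 and 18 fragments in Cre and between 10 and 16 in GFP. Of the other sites 4 were Cre alone (10 to 14 fragments) and 19 GFP alone (8 to 18 fragments). The cluster at the homeobox gene Hoxc6 held 7 Cre and 13 GFP peaks (chr15:102998731-103013356). At its 4 shared sites the Cre summits were 11, 16, 12 and 11 fragments and the GFP summits 20, 11, 12 and 13, with no common direction.

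Genes for RNA-binding proteins formed a group that was noticed only after the genes were seen, so that it carries no weight as a group. Rbfox2, a regulator of splicing, held the only one of the 741 clusters without a Cre peak, while 2 of the 741 had no GFP peak. Its 10 GFP peaks (chr15:77149851-77159932) were all interior, with summits of 10, 16, 13, 11, 11, 17, 10, 10, 9 and 11 fragments. The first 9 lay close together and the last stood apart, so that they counted as 2 peaks under a 500 bp join. The exact interval of the Cre share reached 30.8%. Another cluster in Rbfox2 was balanced with 5 Cre and 5 GFP peaks, and the flanks held 9 Cre and 11 GFP peaks. Outside the member cluster the gene held 9 Cre and 19 GFP peaks, so that Cre calls were present elsewhere in Rbfox2, though fewer than GFP calls.

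Mbnl1 encodes a muscleblind splicing regulator. Its member cluster (chr3:60568806-60618208) held 11 Cre and 21 GFP peaks, while another cluster in the gene held 21 Cre and 15 GFP peaks, the opposite balance. Shared sites were few, 4, with Cre summits of 13, 9, 8 and 14 fragments and GFP summits of 9, 10, 9 and 10. Msi2 encodes Musashi 2, which controls translation in stem cells. Its larger member cluster (chr11:88613007-88657290) held 10 Cre and 19 GFP peaks and the smaller 2 Cre and 6 GFP peaks. The 2 balanced clusters that overlapped the gene held 6 Cre and 4 GFP peaks and 4 Cre and 6 GFP peaks, not all of them inside it. Over the whole genes there were 35 Cre and 38 GFP peaks in Mbnl1 and 20 Cre and 39 GFP peaks in Msi2. Outside the member clusters there were 24 Cre and 17 GFP peaks in Mbnl1 and 8 Cre and 14 GFP peaks in Msi2.

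Among signalling genes, Akt2 encodes a kinase of the insulin and growth factor pathway. Its cluster (chr7:27591076-27609613) held 7 Cre and 17 GFP peaks over 2680 bp and 5152 bp. At the 4 shared sites the Cre summits were 14, 13, 16 and 15 fragments and the GFP summits 17, 13, 13 and 9. The 13 GFP-only sites, with 9 to 17 fragments, filled the stretch between the first and the last shared site and beyond, and 3 sites were Cre alone. The flanks held 1 Cre and 1 GFP peak. Cdon encodes a co-receptor for hedgehog ligands. Its cluster (chr9:35422165-35449780) held 2 Cre and 8 GFP peaks and no shared site, while another cluster of the gene held 5 Cre and 3 GFP peaks.

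Il16 encodes the precursor of a cytokine. Its first member cluster (chr7:83685997-83718520) held 2 Cre peaks of 11 and 13 fragments and 9 GFP peaks of 9 to 17, with no shared site. The second held 5 Cre and 10 GFP peaks. The cluster at Nrep, a gene named for neuronal regeneration, had 3 Cre and 13 GFP peaks (chr18:33443604-33471503), a Cre share of 18.8% (4.05 to 45.6%). Its 3 shared sites had 14, 14 and 12 fragments in Cre and 17, 23 and 15 in GFP. Beside them stood the highest GFP-only site of the named clusters, with 26 fragments. GFP was thus higher at all 3 shared sites of Nrep.

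Several clusters lay in genes of protein turnover and membrane traffic. Nedd4 encodes a ubiquitin ligase, and its cluster (chr9:72687418-72716923) held 8 Cre and 15 GFP peaks, all interior, over an internal start of the gene. The highest shared site had 15 fragments in Cre and 22 in GFP, and the other 3 had 10 to 15 in Cre and 10 to 12 in GFP. A further cluster that overlapped Nedd4 was balanced, with 14 Cre and 13 GFP peaks, most of them outside the gene. Outside the member cluster the gene itself held 4 Cre and 3 GFP peaks. Ube2m encodes the enzyme that conjugates NEDD8 to cullins. Its cluster (chr7:13025173-13038833) also took in the corepressor gene Trim28 and the ESCRT gene Chmp2a and held 2 Cre and 8 GFP peaks, 7 of the 10 at gene ends. Its shared site had 12 fragments in Cre and 10 in GFP.

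Tom1l2, an endosomal sorting gene, held 12 Cre and 26 GFP peaks over 61.7 kb (chr11:60290450-60352147), the longest span of the 81. Its 4 shared sites had 10, 10, 9 and 8 fragments in Cre and 10, 10, 15 and 11 in GFP, and its 22 GFP-only sites had 8 to 21 against 8 to 12 at 8 Cre-only sites. Stx16 encodes a syntaxin of the trans-Golgi network, and its cluster (chr2:174077193-174083453) held 2 Cre and 8 GFP peaks with 1 shared site of 8 fragments in Cre and 10 in GFP. Pam, whose product amidates secreted peptides, held 7 Cre and 13 GFP peaks (chr1:98069877-98095257). Its 5 shared sites had 13, 10, 18, 15 and 13 fragments in Cre and 10, 18, 24, 20 and 12 in GFP.

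Dnm1 encodes the endocytic GTPase dynamin 1. Its cluster (chr2:32316952-32348076) held 7 Cre and 13 GFP peaks and the microRNA gene Mir199b. The nearest Cre peak to the mature sequence of miR-199b-3p lay 409 bp away and the nearest GFP peak 694 bp away, so that neither list called the microRNA itself. Its RefSeq sequence is shown with the seed (bases 2 to 8) in capitals, since it is the best known of the 4 microRNA genes inside the clusters.
mmu-miR-199b-3p (chr2:32318524-32318545, plus strand): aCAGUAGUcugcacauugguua

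The remaining clusters with a low Cre share were small. Ccdc34 (chr2:110173101-110192952) had 2 Cre and 10 GFP peaks at and beyond the 3′ end of the gene. Fan1, a DNA repair nuclease gene, and its neighbour Mtmr10 (chr7:64339483-64373965) had 2 Cre peaks of 14 fragments each, both on GFP peaks of 10 and 14, and 8 GFP-only sites of 8 to 18. The cluster nearest to Ppp1r3c, which encodes a glycogen-targeting phosphatase subunit, lay 25.3 kb from that gene (chr19:36677353-36706454) and was wholly intergenic. It had 3 Cre and 12 GFP peaks, and its 2 shared sites had 10 and 15 fragments in Cre and 10 and 20 in GFP. Fsip1 (chr2:118178612-118184120) and Tmem167b with the TFIID subunit gene Taf13 (chr3:108559870-108572224) each had 2 Cre and 7 GFP peaks. All Cre peaks of both overlapped GFP peaks. At Fsip1 the shared sites had 9 and 15 fragments in Cre and 15 and 16 in GFP, and at Tmem167b 10 and 22 in Cre and 17 and 20 in GFP.

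The other 53 clusters held 580 peaks, 170 Cre and 410 GFP, with 8 to 19 peaks each and Cre shares between 22.2 and 33.3%. None of their intervals lay under 50.5%. They spanned 2.25 to 29.7 kb and their highest summits reached between 10 and 29 fragments in Cre and between 11 and 30 in GFP, with a median of 16 in both. Genes under them included Trpv4, a calcium channel expressed in chondrocytes (5 Cre and 13 GFP peaks), Scrg1, a gene induced in chondrogenesis (3 and 6), Smpd3, a sphingomyelinase needed for mineralization in mice (4 and 9), and Pcolce, an enhancer of procollagen processing (2 and 6, in a cluster with Fbxo24 and Mospd3). Others were the nuclear receptor gene Thra (4 Cre and 8 GFP peaks), the histone demethylase gene Kdm6b (3 and 7), the p53 ligase gene Mdm2 (5 and 11), the annexin genes Anxa4 (5 and 14) and Anxa5 (4 and 8), and the co-chaperone gene Bag3 (3 and 7). An intergenic cluster of 3 Cre and 9 GFP peaks had Fgfr2 as its nearest protein-coding gene, 145.9 kb away. These genes of the 53 were picked after their values were seen.

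Of 255 genes in 10 lists of chondrocyte and HDAC3-related functions, 6 lay under a GFP-leaning cluster, 11 under a Cre-leaning one and 42 under a balanced one. The 6 are 10.5% of the 57 that lay under any cluster of 8 or more peaks. This is near the 11.6% of the 765 protein-coding genes under any such cluster. Of all 255 listed genes 2.35% lay under a GFP-leaning cluster, against 0.406% of all 21896 protein-coding genes. The lists were chosen with earlier results of these data known. The cartilage matrix list gave 2 of 35 genes (Acan and Matn3) against 2 under Cre-leaning clusters (Epyc and Dcn) and 15 under balanced ones, among them Col2a1, Col9a1 and Col11a1. The list of chondrocyte transcription factors gave 2 of 29 (Zbtb20 and Nfib), where 2 lay under Cre-leaning clusters (Sox9 and Runx1) and 10 under balanced ones, Zbtb20 again among them. The list of proteoglycan sugar chains and sulphation gave 1 of 21 (Chst11), against 2 under Cre-leaning clusters (Chst12 and Chsy3) and 6 under balanced ones, Chst11 again among them. The list of Phlpp, Akt and mTOR genes gave 1 of 16 (Akt2) and none under the other clusters. The lists of hypertrophy, BMP and TGF-beta, Wnt with hedgehog and FGF, deacetylase, actin and inflammation genes gave none. No list is called particular to these clusters from such counts.

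Outside their edges the lean was not present to the same degree. Within 100 kb on either side the flanks held 862 peaks, 418 of them Cre, a share of 48.5% (45.1 to 51.9%), and 50.7% (47.1 to 54.3%) once other GFP-leaning clusters were left out. With clusters leaning either way left out, the share was 49.7% (46.1 to 53.4%). In the same flanks 36 clusters had fewer Cre than GFP peaks, 26 had more and 19 had equal numbers, 7 of which had no peak at all. Around Cre-leaning clusters the Cre share was 60.7%, 54.9% without other Cre-leaning clusters and 55.7% without clusters leaning either way. The rule chose the flank peaks that belong to other member clusters, which the second value leaves out, and flank peaks within 12.5 kb of a cluster are absent by construction.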

How the data were processed

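H3K27ac ChIP-seq of 2 cultures was analysed, 1 library each, from peak lists that the authors deposited, with mm10 as the build per the submitters' processing notes. The lists have the column order of MACS2 output, with 1 list per library. No source used here gives the caller's version, its settings or its control library. Picard, SICER, BWA and bcl2fastq 1.8.4 are named, without roles, per the submitters' processing notes. The input libraries are not analysed here. Each deposited row gives a score (10 times the −log10 q-value, as whole number), a ratio (fold enrichment over the expected pileup, with 1 added to both) and the authors' −log10 p-value and −log10 q-value. The authors' values were used to describe and filter peaks only.

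From the ratio and the −log10 p-value the whole-number pileup of each summit was recovered, which worked for 100% of the peaks within 0.001. Depth in reads is unknown. The background pileup was 1.008 fragments in Cre and 0.949 in GFP. Over all, summit pileups ran between 7 and 63 in Cre and between 7 and 58 in GFP, with a median of 12 in both. Peaks no more than 12.5 kb apart were joined into 6995 clusters. Sites are chains of peaks that overlap by at least 1 bp. Intervals are exact (Clopper-Pearson, 95%) and cover counting error only. No test between cultures was made, since each has 1 library. Gene extents, promoters and microRNAs came from RefSeq tables (GRCm38.p6, the mm10 assembly); exons and introns were not annotated. Steps ran in Python 3.11.15 with numpy 2.4.6, pandas 2.3.3, scipy 1.17.1 and matplotlib 3.10.9 and were tested on simulated data.

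The clusters, gene lists and comparisons were chosen with earlier results of these data known. Clusters named in the text are the 12 with the most peaks, the 12 with the lowest Cre share, those with a gene of the lists, and the 3 nearest the threshold on either side, 28 members in all. A cluster is called by the protein-coding gene that holds most of its summits, by its listed genes, or by the nearest gene. Alternatives changed the joining gap, the minimum number of peaks, the share, the peak filter, the way of counting, the overlap and the boundary window.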

Additional observations from a re-analysis of the deposited data

How the results depend on the processing

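The number of GFP-leaning clusters (81) was 71 with a gap of 5 kb, 84 with 25 kb, 71 with the 10000 highest peaks of each list, 64 with pileups of 10 or more and 80 without chromosomes X and Y. Of the 81 clusters, 59, 56, 44, 48 and 80 overlapped a cluster found under these settings, in that order. Similar totals thus did not mean the same clusters. It was 196 with a minimum of 6 peaks, 42 with 12, 44 at a Cre share of 30% or less and 188 at 40% or less. Joined anew from peaks with a −log10 q-value of 5 or more it was 42, and from peaks merged within 500 bp 22; in each case 17 of the 81 clusters overlapped one of these. The cause was not tested. The Cre share of peaks (29.1%) was 36.4% with peaks within 500 bp counted as 1, and between 29.3 and 30.8% under the other ways of counting. The share of GFP peaks on a Cre peak (26.4%) was 12.6% when 50% of both peaks had to overlap and 63.8% within 1 kb. Peaks at gene ends (11.5%) made up 5.39% with a window of 500 bp and 22.8% with 2.5 kb, while interior peaks made up 74.9% with all annotated genes. Of 168 values for the 28 named clusters, 164 stayed within their interval and 4 did not, all with a −log10 q-value of 5 or more: the Cre share was then 0% at Stx16, Nfib and the third Zbtb20 cluster and 10% at Tom1l2. These values reuse the same selected peaks and the intervals are wide (2.52 to 55.6% at Cdon), so the count is a weak check. None of the 168 passed 50%. Acan, Chst11 and Dnm1 stood at 50% with the 500 bp count, and Ube2m with a −log10 q-value of 5 or more. Over all 81 clusters the direction did change in some. The highest Cre share was 75% with the 500 bp count, 100% with the q-value filter and 60% with pileups of 10 or more. By covered length it was 51.1% and by summed pileup 43.0%. No paired analysis was possible because each culture gave 1 library. Low pileups, with the lowest at 7 fragments, limit every single cluster.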
